A study of Oncorhynchus mykiss with 6 samples.

Results

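Alpha and beta tubulins are the protein subunits of microtubules, and the loci that encode them were examined in dorsal skin of rainbow trout (Oncorhynchus mykiss). The loci were those whose product name in the deposited table contained "tubulin alpha" or "tubulin beta", leaving out names with kinase, ligase or cofactor. This gave 46 of 41818 loci, 25 alpha and 21 beta. Product names and symbols in the table come from matches to other species, so an isotype name is that of the match and not an assigned trout ortholog. All 46 loci carried the KEGG ortholog number of alpha or beta tubulin in the table. A further 4 loci carried it too but were worded otherwise ("tubulin, beta, 2" at 2 loci, "tubulin, alpha 8 like 3-1" and "alpha tubulin subunit"), and they are given beside the 46 where they matter.

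RNA was sequenced from 3 libraries of yellow mutant skin and 3 libraries of wild-type skin, all of fish aged 45 days. Flash-frozen dorsal skin was extracted with Trizol, and the gene behind the yellow phenotype is not named in the labels. Whether the 3 libraries of a group are separate fish is not in the labels, so p-values reflect library-to-library spread that is perhaps technical. The comparison asks which RNAs differ between skins of different colour. Whole skin is a mixture of cells, so that fewer cells of a type and less RNA per cell cannot be told apart.

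An alpha and a beta tubulin chain pair into a dimer, and dimers join head to tail into the wall of the hollow microtubule, which carries organelles, forms the mitotic spindle and builds the axoneme of cilia. In fish pigment cells, microtubules are the tracks along which melanosomes are moved. Vertebrates have several isotypes of each chain: in mammals TUBB3 is best known from neurons, TUBB4B from most tissues and from cilia, and TUBA3C from testis. The salmonid genome duplication left many of these genes in further copies.

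Total counts lay between 15059101 and 19031878 per library. Levels are TMM-scaled CPM, that is, counts scaled to the size of the library. A log2 change is the fitted log2 ratio, yellow mutant over wild type, with its standard error (SE), and adjusted p-values are from the edgeR quasi-likelihood test with Benjamini-Hochberg adjustment over all tested loci. Of 30691 loci tested, 44.8% passed an adjusted p of 0.05, 21.7% with a higher and 23.1% with a lower level in the yellow mutant. Correlations of log2 CPM across genes lay between 0.983 and 0.985 within the yellow mutant, between 0.981 and 0.982 within the wild type, and between 0.925 and 0.937 across the phenotypes. The summed level of keratinocyte marker loci lay between 35040 and 38710 CPM in yellow mutant libraries and between 85440 and 90470 CPM in wild-type libraries. That of pigment cell marker loci lay between 1390 and 1660 CPM in yellow mutant libraries and between 671.6 and 759.4 CPM in wild-type libraries. The part of these shifts in the tubulin values was not tested.

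More tubulin loci were higher than lower in yellow mutant skin, while a few individual copies went steeply the other way. Of the 46 loci, 39 had enough counts to be tested, and 18 rose, 3 fell and 18 did not pass. That is 46.2% higher and 7.69% lower among the tested tubulin loci, beside 21.7% and 23.1% over all tested loci. Their median log2 change was 0.30, beside -0.0029 over all tested loci, and their range was -5.58 to 2.11. Among 20 tested alpha loci 11 rose and 0 fell by edgeR, with a median of 0.42; DESeq2 and limma also called 0 lower, and 1 locus, TUBA3C ncbi_110509613, was lower at an unadjusted p under 0.05. Among 19 tested beta loci 7 rose and 3 fell, with a median of 0.25. Levels were free of overlap at 19 tubulin loci that were higher and 3 that were lower in the yellow mutant, beside 26.8% higher and 27.6% lower over all tested loci. Changes of at least 1 on the log2 scale in either direction were reached by 7 of the loci that passed, 5 higher and 2 lower, beside 11.5% of all tested loci (4.81% higher, 6.64% lower). Scaled by library totals alone, without TMM factors, the median of all tested loci was 0.20 and 50.0% of them passed, 35.2% higher and 14.8% lower, and 21 tubulin loci were called higher and 3 lower.

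No locus of at least 10 FPKM passed as lower, and 6 of the 7 changes of at least 1 on the log2 scale were at loci with lower levels. FPKM is scaled to transcript length and library total without TMM factors, so gaps between the phenotypes differ between FPKM and TMM-scaled CPM. At a mean of at least 10 FPKM, 12 of 18 loci rose and 0 fell, with edgeR, DESeq2 and limma alike giving 0. Again TUBA3C ncbi_110509613 was lower at an unadjusted p under 0.05. Below 10 FPKM there were 28 loci, of which 21 were tested, 6 rose and 3 fell. Over all tested loci of any FPKM, 21.7% rose and 23.1% fell. Shares over all loci on either side of the line were not computed, so how loci of like abundance behave in general is not known. The mean was taken over both phenotypes, so a change can itself move a locus across the 10 FPKM line. TUBB4B ncbi_110523237, which fell, was under the line in both phenotypes, at 6.63 FPKM in the yellow mutant and 9.99 FPKM in the wild type. TUBA1C ncbi_110532640, which rose, averaged 26.8 FPKM in the yellow mutant and 9.12 FPKM in the wild type, and so was above the line in the yellow mutant only. The calls on either side of the line are therefore not independent of the split. In the authors' deposited table, 18 of the 46 loci have an FDR under 0.05 with a positive fold change and 4 with a negative one. The shares of all loci called by the authors' FDR were not computed, and both tests rest on the same libraries.

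**Figure D1:**
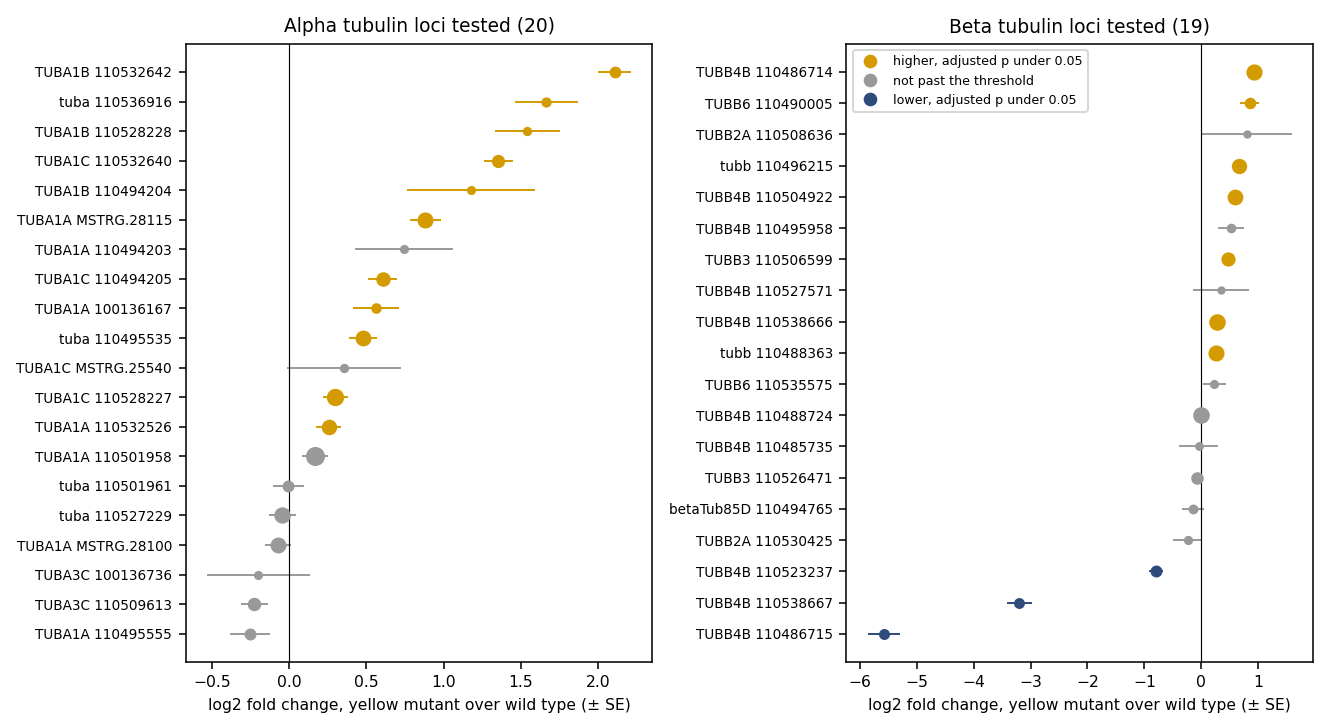
Log2 change, yellow mutant over wild type, with its standard error, for the 20 tested alpha loci (left) and the 19 tested beta loci (right), each named by symbol and NCBI gene number or MSTRG identifier. Larger points have a higher mean FPKM, and colour gives the call at an adjusted p of 0.05. The alpha loci run from -0.26 to 2.11, and the 2 lowest beta loci stand at -3.20 and -5.58, far below the others.

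The alpha locus with the highest mean FPKM was TUBA1A ncbi_110501958 ("tubulin alpha chain"). It had 705.3, 638.1 and 708.5 CPM in yellow mutant libraries, against 631.7, 617.4 and 578.5 CPM in wild-type libraries. All 3 yellow mutant values lay above the wild-type values, but by a small margin, and the log2 change of 0.17 (SE 0.09) did not pass (adjusted p = 0.127). It passed without yellow mutant library 2 (0.22, adjusted p = 0.0492) and with library totals alone (0.36, adjusted p = 0.00253). Of the summed FPKM of the 25 alpha loci of the rule, it took 37.3 ± 0.216% in the yellow mutant and 40.2 ± 1.06% in the wild type (SD, n = 3 each).

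TUBA1C ncbi_110528227 ("tubulin alpha-1c chain") was next by FPKM among the alpha loci of the rule. It had 307.8, 276.9 and 315.8 CPM in yellow mutant libraries, against 243.8, 241.4 and 246.8 CPM in wild-type libraries. The groups did not overlap, and the log2 change was 0.30 (SE 0.08, adjusted p = 0.00840). The alpha-4A locus tuba ncbi_110527229 had 205.1, 168.5 and 193.1 CPM in yellow mutant libraries, against 189.8, 197.4 and 197.2 CPM in wild-type libraries, and these values overlapped (log2 change -0.04, SE 0.09, adjusted p = 0.704). TUBA1A MSTRG.28115, a locus without an NCBI number, had 178.8, 142.6 and 186.2 CPM in yellow mutant libraries, against 92.3, 95.9 and 87.2 CPM in wild-type libraries. All yellow mutant libraries were clearly above all wild-type libraries, with a log2 change of 0.88 (SE 0.10, adjusted p = 1.14e-05). TUBA1A MSTRG.28100, with the same product name, had 114.8, 134.5 and 134.2 CPM in yellow mutant libraries, against 136.9, 137.1 and 130.0 CPM in wild-type libraries. Here the groups overlapped, and the log2 change of -0.07 (SE 0.08) did not pass (adjusted p = 0.493).

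The make-up of the alpha pool differed at single loci. Unless said otherwise, shares here are of the summed FPKM of the 25 alpha loci of the rule. MSTRG.28115 (TUBA1A) took 9.25 ± 0.778% of the summed alpha FPKM in the yellow mutant and 5.77 ± 0.197% in the wild type (SD, n = 3 each). MSTRG.28100 (TUBA1A) took 6.43 ± 0.79% and the alpha-4A locus ncbi_110527229 8.16 ± 0.451% in the yellow mutant, against 8.15 ± 0.0871% and 10.2 ± 0.375% in the wild type. The 3 alpha loci with the highest share averaged over both phenotypes were ncbi_110501958, ncbi_110528227 and ncbi_110527229. Together they held 60.7 ± 0.785% in the yellow mutant and 65.3 ± 0.338% in the wild type. This set is not the top 3 of the yellow mutant, where MSTRG.28115 took more than ncbi_110527229. With the differently worded loci included, the top 3 were ncbi_110501958, ncbi_110501960 and ncbi_110528227. These held 62.7 ± 0.512% in the yellow mutant and 63.7 ± 0.519% in the wild type, so the gap between the phenotypes was smaller.

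The alpha loci with the largest changes all rose. TUBA1B ncbi_110532642 ("tubulin alpha chain") had 19.25, 19.96 and 19.86 CPM in yellow mutant libraries, against 4.89, 4.29 and 4.48 CPM in wild-type libraries, a log2 change of 2.11 (SE 0.11, adjusted p = 1.411e-08). The spread within each phenotype was small beside the distance between them. The alpha-8-like locus tuba ncbi_110536916 had 6.88, 5.48 and 6.76 CPM in yellow mutant libraries, against 1.61, 2.57 and 1.88 CPM in wild-type libraries (log2 change 1.67, SE 0.21, adjusted p = 2.44e-05). TUBA1B ncbi_110528228 ("tubulin alpha chain-like") had 4.74, 4.70 and 4.25 CPM in yellow mutant libraries, against 1.85, 1.36 and 1.45 CPM in wild-type libraries (log2 change 1.54, SE 0.21, adjusted p = 5.696e-05). No library of either group reached the other group's range at these loci. TUBA1C ncbi_110532640 ("tubulin alpha-1c chain") had 61.6, 52.5 and 56.7 CPM in yellow mutant libraries, against 21.3, 20.5 and 24.9 CPM in wild-type libraries (log2 change 1.35, SE 0.09, adjusted p = 1.8e-07). TUBA1B ncbi_110494204 ("tubulin alpha chain-like") had 3.12, 2.74 and 1.84 CPM in yellow mutant libraries, against 2.09, 0.429 and 0.787 CPM in wild-type libraries. Wild-type library 1 lay within the yellow mutant range here. The log2 change was 1.18 (SE 0.41, adjusted p = 0.0333), it was 2.03 without wild-type library 1, and the call was lost without yellow mutant library 1 or 2 (adjusted p = 0.0989 and 0.0909) or wild-type library 2 or 3 (adjusted p = 0.116 and 0.121).

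The other alpha loci that rose were TUBA1C ncbi_110494205 (log2 change 0.60), TUBA1A ncbi_100136167 (0.56), the alpha-4A locus tuba ncbi_110495535 (0.48) and the alpha-8-like TUBA1A ncbi_110532526 (0.26). The last lost its call without yellow mutant library 1 or wild-type library 2 or 3 (adjusted p = 0.0577, 0.0532 and 0.0896). The testis-type locus TUBA3C ncbi_110509613 was present in skin of both phenotypes, at 34.4 ± 2.73 CPM in yellow mutant skin and 40.2 ± 3.51 CPM in wild-type skin (SD, n = 3 each), and its log2 change of -0.23 did not pass (adjusted p = 0.056). It passed without yellow mutant library 3 or wild-type library 1 (adjusted p = 0.0347 and 0.0225). With library totals alone the change was -0.03 (adjusted p = 0.827). TUBA1A ncbi_110495555 had a log2 change of -0.26 and did not pass (adjusted p = 0.122). Without yellow mutant library 3 it passed (-0.40, adjusted p = 0.0207), and with library totals alone it stood at -0.06 (adjusted p = 0.734). TUBA1A ncbi_110494203 had a log2 change of 0.74 and did not pass (adjusted p = 0.0729). Without wild-type library 1 it passed (1.30, adjusted p = 0.00356). TUBA3C ncbi_100136736, TUBA1C MSTRG.25540 and tuba ncbi_110501961 did not pass, with log2 changes of -0.20, 0.35 and -0.01.

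Among beta tubulins of the rule the 3 loci with the highest mean FPKM were TUBB4B copies. TUBB4B ncbi_110488724 ("tubulin beta-4b chain-like") had 184.1, 198.3 and 209.7 CPM in yellow mutant libraries, against 202.0, 198.9 and 193.3 CPM in wild-type libraries. The groups overlapped fully, and the log2 change of -0.005 (SE 0.08) did not pass (adjusted p = 0.965). TUBB4B ncbi_110538666 had 221.7, 210.9 and 215.7 CPM in yellow mutant libraries, against 173.9, 175.8 and 184.6 CPM in wild-type libraries (log2 change 0.28, SE 0.07, adjusted p = 0.00812). TUBB4B ncbi_110486714 had 213.8, 201.0 and 204.2 CPM in yellow mutant libraries, against 108.6, 111.0 and 107.9 CPM in wild-type libraries, with a log2 change of 0.92 (SE 0.07, adjusted p = 5.691e-07). Per length, ncbi_110486714, ncbi_110538666 and ncbi_110488724 averaged 126.3, 131.8 and 124.9 FPKM in the yellow mutant, against 58.2, 94.7 and 109.2 FPKM in the wild type, so that the first was close to the others in the yellow mutant alone. These FPKM values carry no TMM factors. By TMM-scaled CPM, ncbi_110488724 averaged 197.4 in the yellow mutant and 198.1 in the wild type. The locus tubb ncbi_110488363 ("tubulin beta chain") had 184.6, 180.3 and 207.4 CPM in yellow mutant libraries, against 164.4, 159.7 and 156.7 CPM in wild-type libraries (log2 change 0.25, SE 0.08, adjusted p = 0.0213). Its groups did not overlap, but the call was lost without yellow mutant library 3 or wild-type library 2 or 3 (adjusted p = 0.0697, 0.0702 and 0.0821). TUBB4B ncbi_110504922 ("tubulin beta-4b chain") had 155.9, 149.3 and 161.9 CPM in yellow mutant libraries, against 99.2, 109.0 and 101.7 CPM in wild-type libraries (log2 change 0.59, SE 0.08, adjusted p = 3.66e-05).

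Unless said otherwise, beta shares here are of the summed FPKM of the 21 beta loci of the rule. By this measure ncbi_110486714 (TUBB4B) took 17.4 ± 0.512% in the yellow mutant and 11.6 ± 0.0853% in the wild type. The locus ncbi_110488724 (TUBB4B) took 17.2 ± 1.09% in the yellow mutant and 21.7 ± 0.588% in the wild type (SD, n = 3 each). The 3 beta loci with the highest share averaged over both phenotypes were ncbi_110488724, ncbi_110538666 and ncbi_110486714. Together they held 52.9 ± 0.425% in the yellow mutant and 52.1 ± 0.594% in the wild type. This set is not the top 3 of the wild type, where ncbi_110488363 took more than ncbi_110486714, at 14.6 ± 0.463%. With the differently worded loci included, the top 3 were ncbi_110535859, ncbi_110525484 and ncbi_110488724. These held 59.7 ± 1.08% in the yellow mutant and 56.4 ± 0.445% in the wild type. In that wider sum ncbi_110486714 took 8.49 ± 0.376% in the yellow mutant and 6.45 ± 0.0275% in the wild type.

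The other beta loci that rose were tubb ncbi_110496215 (log2 change 0.66, SE 0.07, adjusted p = 8.252e-06), TUBB6 ncbi_110490005 ("tubulin beta-5 chain"; 0.85) and the neuronal-type TUBB3 ncbi_110506599 (0.48). TUBB3 ncbi_110506599 had 73.7, 61.0 and 63.7 CPM in yellow mutant libraries, against 45.5, 48.7 and 48.3 CPM in wild-type libraries. The other tested TUBB3 locus, ncbi_110526471, did not pass. It averaged 21.3 ± 0.82 CPM in yellow mutant skin and 22.5 ± 2.06 CPM in wild-type skin (SD, n = 3 each). A further TUBB3 locus, ncbi_110502655 ("tubulin beta chain-like"), had too few counts to be tested and went the other way from ncbi_110506599. It had 4 counts in the yellow mutant and 47 in the wild type, 33 of these in wild-type library 3. Its log2 change without the filter on low counts was -3.68 (adjusted p = 0.00168). Of 29 tested loci on the neuron marker list, 10 rose and 3 fell, beside 21.7% and 23.1% over all tested loci. With library totals alone 16 rose and 3 fell, beside 35.2% and 14.8%. The summed level of the neuron loci lay between 246.4 and 288.8 CPM in yellow mutant libraries and between 215.1 and 234.1 CPM in wild-type libraries. Their part in the TUBB3 values was not tested. TUBB4B ncbi_110495958 and ncbi_110527571, TUBB4B ncbi_110485735 ("tubulin beta chain-like"), TUBB6 ncbi_110535575, TUBB2A ncbi_110508636 and ncbi_110530425 and betaTub85D ncbi_110494765 did not pass, and lay between -0.24 and 0.81 on the log2 scale with all libraries. TUBB2A ncbi_110508636, whose wild-type libraries held 24, 1 and 0 counts, passed when wild-type library 1 was left out (log2 change 4.53, adjusted p = 0.00219).

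The 2 steepest changes in the family were in TUBB4B loci that fell. TUBB4B ncbi_110486715 had 0.636, 0.342 and 0.0512 CPM in yellow mutant libraries, against 15.1, 16.9 and 16.8 CPM in wild-type libraries. In raw counts this was 11, 7 and 1 in the yellow mutant, against 253, 236 and 277 in the wild type. The locus was thus near 0 in every yellow mutant library and at an even level in the wild type, with a log2 change of -5.58 (SE 0.28, adjusted p = 1.304e-08), or -6.29 without yellow mutant library 1. TUBB4B ncbi_110538667 had 1.68, 1.32 and 1.74 CPM in yellow mutant libraries, against 13.2, 19.3 and 11.1 CPM in wild-type libraries (log2 change -3.20, SE 0.22, adjusted p = 1.886e-07). The wild-type libraries differed more among themselves here, but the lowest of them remained far above every yellow mutant library. The third locus that fell, TUBB4B ncbi_110523237 ("tubulin beta-4b chain"), had 10.98, 10.2 and 8.19 CPM in yellow mutant libraries, against 15.2, 17.3 and 18.3 CPM in wild-type libraries (log2 change -0.79, SE 0.12, adjusted p = 0.000172).

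These 2 steep falls were in neighbouring copies of the same gene arrangement. In the order of genes on the RefSeq assembly USDA_OmykA_1.1, ncbi_110486714 and ncbi_110486715 lie side by side, and so do ncbi_110538666 and ncbi_110538667. Both pairs stand between a nuclear factor 7-like gene with RRN3, a transcription factor of RNA polymerase I, on one side and Crb3, a gene of epithelial cell polarity, with the histone chaperone gene asf1bb on the other. In both blocks the first TUBB4B copy was abundant and higher in the yellow mutant, and the second was scarce and lower. Crb3 beside the second copy was lower in both blocks. Crb3 ncbi_110486716 had 0.983, 0.685 and 1.07 CPM in yellow mutant libraries, against 3.578, 3.005 and 3.269 CPM in wild-type libraries (log2 change -1.85, SE 0.26, adjusted p = 7.722e-05). Crb3 ncbi_110538668 had 3.81, 3.13 and 3.74 CPM in yellow mutant libraries, against 10.6, 14.1 and 18.0 CPM in wild-type libraries (log2 change -2.0, SE 0.19, adjusted p = 2.198e-06). The genes around them varied: asf1bb had log2 changes of 0.28 at ncbi_110486720 (adjusted p = 0.035) and 0.25 at ncbi_110538669 (adjusted p = 0.0929), and RRN3 of 0.76 at ncbi_110486712 (adjusted p = 1.092e-05) and -0.16 at ncbi_110538665 (adjusted p = 0.336). The nuclear factor 7-like gene stood at -0.23 at ncbi_110486713 (adjusted p = 0.397) and -0.70 at ncbi_110539001 (adjusted p = 0.034). The sources used here do not give how reads that match several copies were counted, so the split of counts between similar copies is uncertain at every locus of the family.

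**Figure D2:**
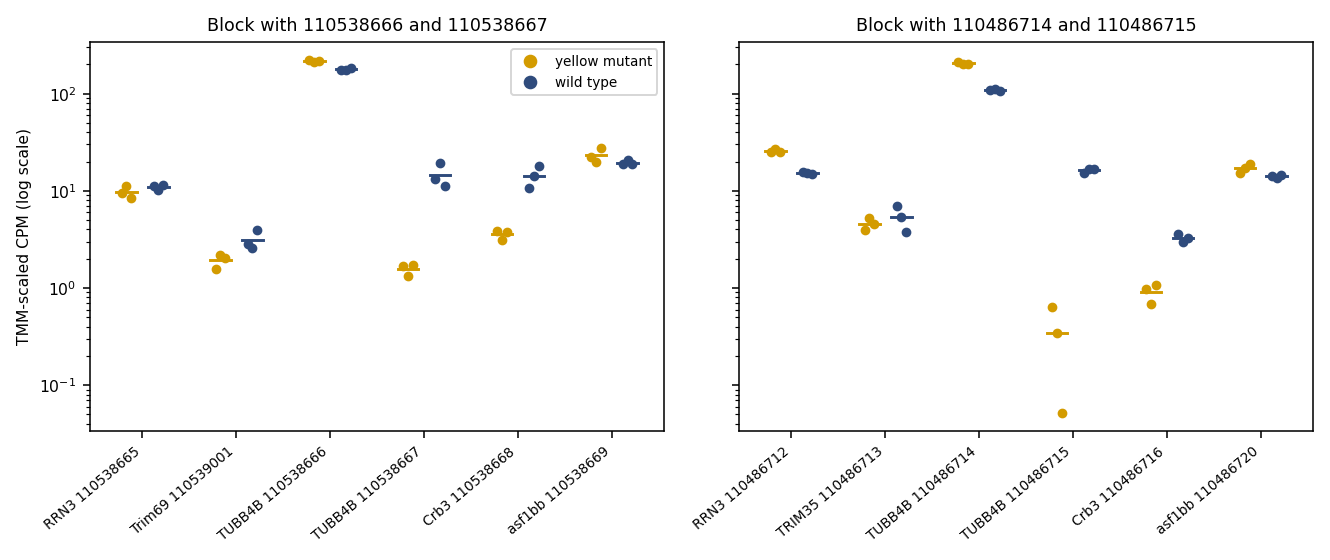
TMM-scaled CPM on a log axis for the genes of both TUBB4B blocks, in their order on the assembly, with yellow mutant libraries left of wild-type libraries; points are libraries and lines are means. In each block the second TUBB4B copy and Crb3 are lower in the yellow mutant, beside a first TUBB4B copy that is higher: ncbi_110486715 averaged 0.343 CPM in yellow mutant and 16.2 CPM in wild-type libraries, ncbi_110486714 206.3 CPM in yellow mutant and 109.1 CPM in wild-type libraries.

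Alpha tubulin loci also lay in small groups, and 4 of these groups adjoined a PMEL locus, which encodes the amyloid protein of the melanosome matrix. TUBA1C ncbi_110528227 and TUBA1B ncbi_110528228 lie next to PMEL ncbi_110528226. That PMEL locus had 548.5, 494.3 and 497.1 CPM in yellow mutant libraries, against 223.7, 224.2 and 267.9 CPM in wild-type libraries (log2 change 1.11, SE 0.09, adjusted p = 9.49e-07). TUBA1B ncbi_110494204, TUBA1A ncbi_110494203 and TUBA1C ncbi_110494205 lie next to the PMEL-like locus ncbi_110494197, which had 58.3, 49.5 and 53.4 CPM in yellow mutant libraries, against 19.9, 23.8 and 22.4 CPM in wild-type libraries (log2 change 1.29, SE 0.09, adjusted p = 2.271e-07). TUBA1C ncbi_110532640 and TUBA1B ncbi_110532642, which had the largest alpha change, lie next to the PMEL-like locus ncbi_110532643, which was close to 0 (0.102 ± 0.0816 CPM in the yellow mutant, 0.0477 ± 0.0826 CPM in the wild type, SD, n = 3 each) and was not tested. The fourth group holds TUBA1B ncbi_110492026, with 11 counts in the yellow mutant and 7 in the wild type, the differently worded TUBA1B ncbi_110492025 (log2 change -0.04, adjusted p = 0.813) and the PMEL-like locus ncbi_110492024 (1.05 ± 0.645 CPM in the yellow mutant, 0.363 ± 0.159 CPM in the wild type). Tubulin loci beside a PMEL locus with many counts had unequal changes. A link between the changes of adjoining PMEL and tubulin loci was not tested. On the pigment cell marker list 21 of 30 tested loci rose and 1 fell, PMEL among those that rose. This stands beside 21.7% higher and 23.1% lower over all tested loci. With library totals alone 24 rose and 1 fell, beside 35.2% and 14.8%. The part of the pigment cell list in the alpha tubulin changes was not tested.

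**Figure D3:**
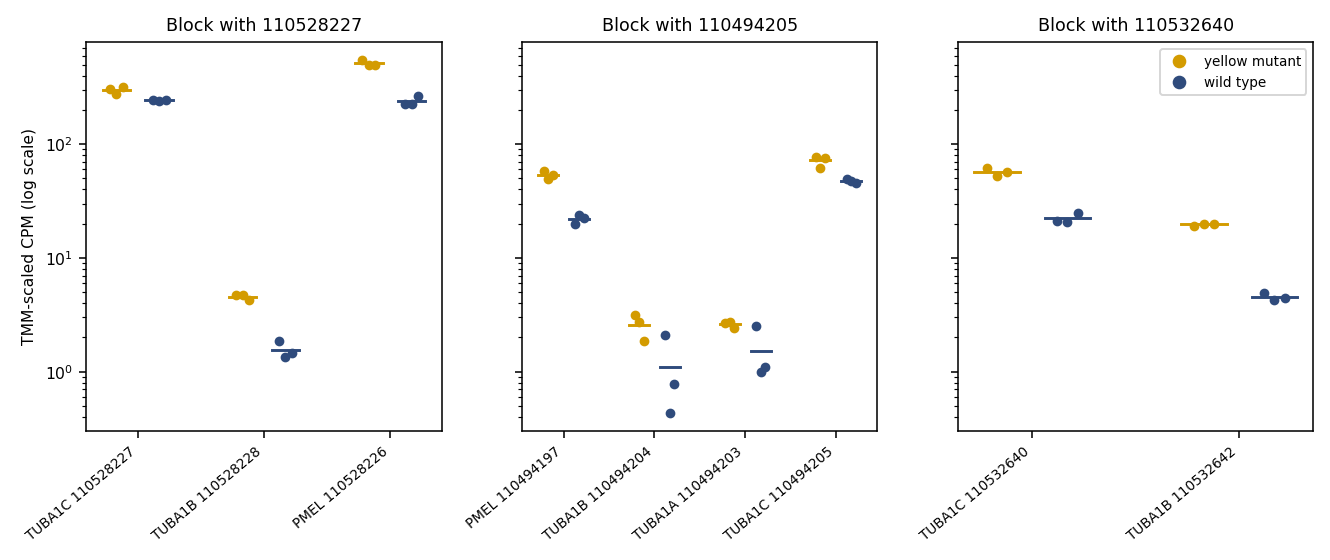
TMM-scaled CPM on a log axis for 3 groups of neighbouring alpha tubulin loci and, in 2 of them, the adjoining PMEL locus, with yellow mutant libraries left of wild-type libraries; points are libraries and lines are means. Loci with too few counts to be tested are not drawn. TUBA1B ncbi_110532642 shows the widest gap between its means on the log axis, at 19.7 CPM in the yellow mutant against 4.55 CPM in the wild type.

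The remaining groups held TUBA1A ncbi_110501958 with tuba ncbi_110501961, tuba ncbi_110502185 (0 counts in all libraries) and the differently worded TUBA1A ncbi_110501960, and the testis-type pair TUBA3C ncbi_110509613 and ncbi_100136736. TUBA1A ncbi_110501960 had 608.7, 544.1 and 638.2 CPM in yellow mutant libraries, against 445.0, 425.8 and 435.1 CPM in wild-type libraries (log2 change 0.46, SE 0.09, adjusted p = 0.000801). Its groups did not overlap, beside its neighbour ncbi_110501958 with a change of 0.17 that did not pass.

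Summed over all loci of a chain, tubulin RNA was higher in the yellow mutant. The 25 alpha loci summed to 2057, 1887 and 2075 CPM in yellow mutant libraries, against 1681, 1678 and 1631 CPM in wild-type libraries, a ratio of 1.21 between the means. The 21 beta loci summed to 1290, 1255 and 1307 CPM in yellow mutant libraries, against 998.6, 1022 and 1006 CPM in wild-type libraries, a ratio of 1.27. Neither sum overlapped between the phenotypes. The differently worded loci added most to the beta chain: TUBB4B ncbi_110535859 had 566.5, 569.3 and 613.3 CPM in yellow mutant libraries, against 318.6, 332.1 and 322.6 CPM in wild-type libraries (log2 change 0.85, SE 0.08, adjusted p = 2.389e-06). TUBB4B ncbi_110525484 had 554.5, 525.9 and 589.5 CPM in yellow mutant libraries, against 360.1, 369.1 and 352.1 CPM in wild-type libraries (log2 change 0.63, SE 0.08, adjusted p = 3.895e-05). Neither overlapped between the phenotypes. Their mean FPKM, taken without TMM factors, was 393.5 and 371.7 in the yellow mutant against 190.8 and 209.7 in the wild type. It exceeded that of every beta locus of the rule. With the 4 loci included, the sums were 2616 ± 151.2 CPM for alpha and 2424 ± 80.8 CPM for beta in the yellow mutant, against 2112 ± 32.7 CPM and 1694 ± 25.6 CPM in the wild type (SD, n = 3 each).

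Per length, the ratio of summed alpha to summed beta FPKM over all 50 loci was 1.15, 1.08 and 1.12 in yellow mutant libraries, against 1.33, 1.28 and 1.28 in wild-type libraries. Over the 46 loci alone it was 1.82, 1.71 and 1.82 in yellow mutant libraries, against 1.90, 1.85 and 1.82 in wild-type libraries. The groups were apart in the wider set and touched in the narrower one.

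**Figure D4:**
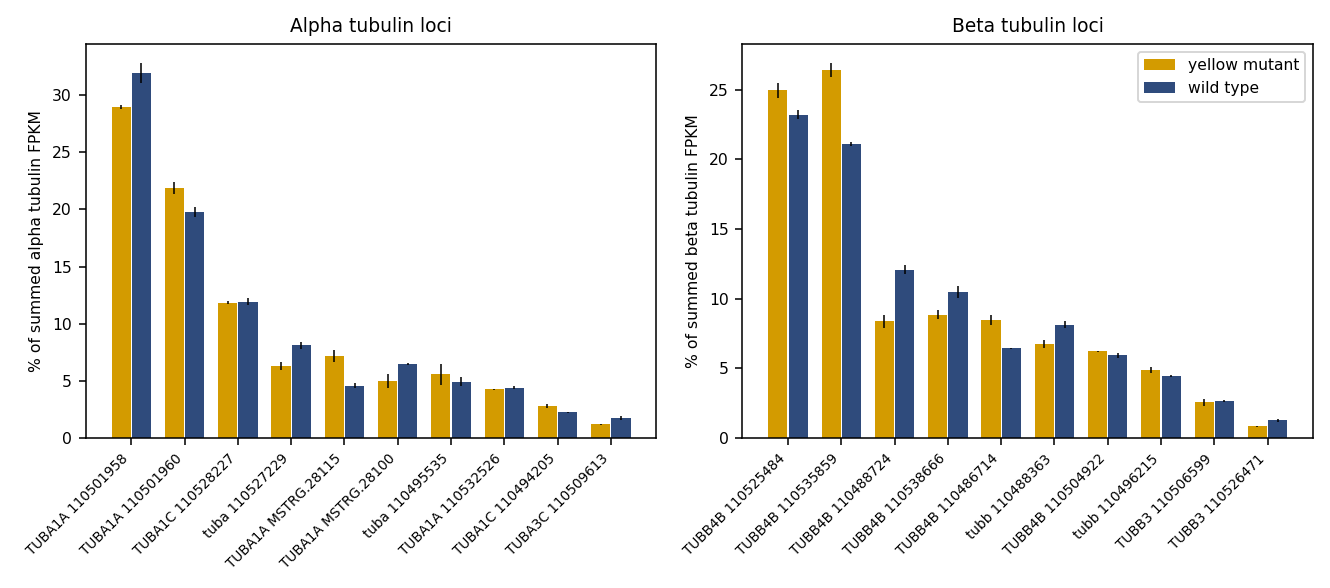
Share of the summed alpha (left) and summed beta (right) tubulin FPKM over all 50 loci that each of the 10 most abundant loci of a chain took, as mean with SD over 3 libraries, yellow mutant left of wild type. TUBB4B ncbi_110535859 took 26.4% of beta tubulin FPKM in the yellow mutant and 21.1% in the wild type, and TUBA1A ncbi_110501958 took 29.0% of alpha tubulin FPKM in the yellow mutant and 31.9% in the wild type.

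The balance between copies with one product name was compared within each library, as the log2 ratio of their counts. Among 7 such pairs, 6 had enough counts, and in all 6 the ratios did not overlap between the phenotypes, beside 46.6% of 3951 such pairs over the whole table, and beside 54.3% of all tested loci whose own levels did not overlap. The pairs of the whole table were not matched to the tubulin pairs in counts. Each of the 6 pairs held a locus that passed on its own, so the ratios are not separate from those calls. An exact two-sided permutation test gave p = 0.1 for each pair, the smallest that 3 against 3 libraries allow, and 0.1 after adjustment over the 6 pairs, so that none passed. The widest shift was in the beta-4B pair, where ncbi_110504922 over ncbi_110523237 stood at 3.82, 3.87 and 4.30 in yellow mutant libraries, against 2.71, 2.65 and 2.47 in wild-type libraries. The first copy of that pair rose and the second fell. The alpha-1A-like pair, ncbi_110495555 over ncbi_100136167, stood at 0.822, 0.587 and 1.24 in yellow mutant libraries, against 1.86, 1.56 and 1.74 in wild-type libraries. The differences of the mean log2 ratio, yellow mutant minus wild type, were 1.39 and -0.84 for these 2 pairs. They were 0.61 for the beta-5 pair, 0.55 for the beta-3 pair, -0.52 for the alpha-4A pair and -0.41 for the pair named only beta chain, where the median absolute difference over all such pairs in the table was 0.33.

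**Figure D5:**
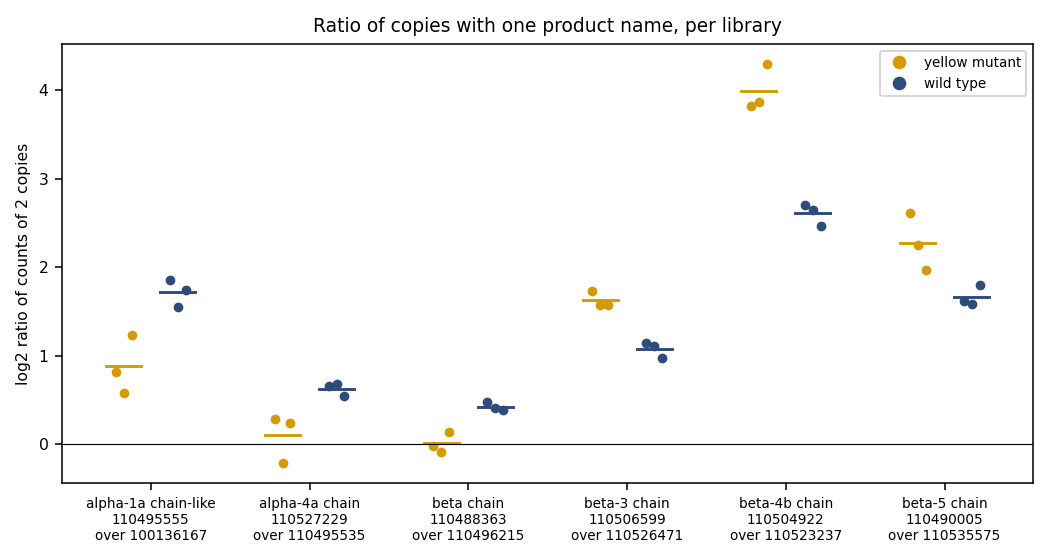
Log2 ratio of the counts of 2 copies with one product name, per library, with yellow mutant libraries left of wild-type libraries; points are libraries and lines are means. The beta-4B pair stands at a mean of 3.999 in the yellow mutant and 2.61 in the wild type, the alpha-1A-like pair at 0.883 in the yellow mutant and 1.72 in the wild type.

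Of the 7 loci with too few counts to test, 2 had 0 counts in all libraries (tuba ncbi_110502185 and TUBB4B ncbi_110503837). TUBB3 ncbi_110502655 ("tubulin beta chain-like") had 4 counts in the yellow mutant and 47 in the wild type, 33 of these in wild-type library 3. Without the filter on low counts its log2 change was -3.68 (adjusted p = 0.00168), and it is the fourth locus that the authors' deposited table lists as lower. The others had 4 counts in the yellow mutant and 0 in the wild type (TUBA1C ncbi_110497829), 11 and 5 (TUBA1C ncbi_110536909), 11 and 7 (TUBA1B ncbi_110492026) and 3 and 2 (TUB2 ncbi_110528230).

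Folding of tubulin needs the cytosolic chaperonin, prefoldin and tubulin cofactors. Of 45 tested loci for these, 15 rose, 7 fell and 23 did not pass, with a median log2 change of 0.17, beside -0.0029 over all tested loci. Over all tested loci 21.7% rose and 23.1% fell, or 35.2% and 14.8% with library totals alone. By that scaling 23 of the folding loci were higher and 5 lower. TBCB ncbi_110503564, a cofactor that handles alpha tubulin, averaged 54.3 ± 1.07 CPM in yellow mutant skin and 22.6 ± 1.63 CPM in wild-type skin (log2 change 1.26, SE 0.08, adjusted p = 8.036e-08). The chaperonin subunits cct3 ncbi_110488282 (0.89) and CCT2 ncbi_110499702 (0.68) also rose. A second TBCB locus, MSTRG.37089, fell (-1.11), as did Tbcel ncbi_110533462 and ncbi_110537684 (-0.73 and -0.77), relatives of cofactor E that destabilise tubulin in mammalian cells.

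Microtubules start on gamma-tubulin complexes, and of 26 tested loci for these 8 rose and 6 fell (median 0.03), or 13 and 4 with library totals alone, beside the same shares over all tested loci. TUBG1 ncbi_110486284, a gamma-tubulin, rose with a log2 change of 0.70 (SE 0.08, adjusted p = 1.504e-05), and the complex component TUBGCP5 ncbi_110532043 rose by 0.86. CKAP5, a polymerase at microtubule plus ends, fell at ncbi_110526152 (-0.97) and ncbi_110532393 (-0.47). The small complex subunit mzt1 was split between its loci: ncbi_110488534 had 122 counts in the yellow mutant and 1 in the wild type, a ratio of scaled counts of 100.7 with an exact 95% binomial interval of 17.7 to 4009 that covers counting error only, while MSTRG.10132 fell by 0.61 on the log2 scale. Of the rarer tubulin types 2 loci were tested. Delta tubulin tubd1 ncbi_110507822 rose by 0.90, and epsilon tubulin Tube1 ncbi_110522141 fell by 0.34 (adjusted p = 0.0494), a call that was lost with library totals alone.

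Enzymes that modify tubulin tails gave 3 loci higher and 6 lower of 26 tested (median 0.0014). The shares over all tested loci were 21.7% higher and 23.1% lower. With library totals alone 6 of these enzyme loci were higher and 3 lower, beside 35.2% and 14.8%. Ttll12 ncbi_110490317, a tubulin tyrosine ligase-like gene, rose (1.11), as did VASH1 ncbi_110497929 (0.84), a vasohibin that removes the terminal tyrosine of alpha tubulin, and the polyglutamylase TTLL4 ncbi_110520665 (0.41). The polyglutamylase Ttll5 ncbi_110497919 fell (-1.59), and so did the carboxypeptidases agbl5 ncbi_110522670 (-1.23) and AGBL1 ncbi_110493825 (-0.60), whose family removes glutamates.

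Of 79 tested loci of microtubule-associated proteins, 14 rose and 11 fell (median 0.05), or 28 and 7 with library totals alone. Map7 ncbi_110497599 (1.32) and MAP4 ncbi_110508665 (1.15), which bind along the lattice, rose, and MID1 ncbi_110520619 (-1.24), Mid1 ncbi_110520618 (-1.15) and MTUS1 MSTRG.16267 (-1.22) fell. Among 24 tested loci for disassembly and severing 3 rose and 6 fell (median 0.12), or 12 and 5 with library totals alone, with KIF2A ncbi_110537072 at 0.59 and KIF18A ncbi_110526523 at -1.18. Of 87 tested motor loci 21 rose and 17 fell (median 0.06), or 39 and 10 with library totals alone, beside 21.7% higher and 23.1% lower over all tested loci, or 35.2% and 14.8%. The kinesin KIF3B ncbi_110505840 (2.07), the dynein adaptor BICD2 ncbi_110494035 (1.78) and the dynein light chain Dynll2 ncbi_110507765 (1.54) rose, and KIF13B ncbi_110529167 (-1.07) and ncbi_110521111 (-0.90) fell, as did DCTN1 ncbi_110504258 (-1.32).

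The list for the mitotic spindle and dividing cells went the other way from the tubulins. Of 49 tested loci 39 fell, 1 rose and 9 did not pass, with a median log2 change of -0.73. This stands beside 23.1% lower and 21.7% higher over all tested loci. With library totals alone 36 were lower and 2 higher, beside 14.8% and 35.2%. PRC1 ncbi_110526666, which bundles the spindle midzone, fell (-2.54), as did the kinetochore gene ndc80 ncbi_110525222 (-2.11) and the kinesin KIF23 ncbi_110501386 (-1.32). The locus that rose was cdk1 ncbi_110502539 (0.28, adjusted p = 0.0448).

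For the other marker lists, the shares over all tested loci are 21.7% higher and 23.1% lower, or 35.2% and 14.8% with library totals alone. On these lists, 3 of 79 tested keratinocyte loci rose and 56 fell, and 4 of 23 ciliated cell loci rose and 5 fell. Of Schwann cell loci 8 of 17 rose and 4 fell, and of muscle loci 10 of 76 rose and 33 fell. Dermal fibroblast loci gave 5 higher and 17 lower of 52 tested, erythrocyte loci 0 and 8 of 22 (1 higher at an unadjusted p under 0.05, 0 by DESeq2 and 1 by limma), leukocyte loci 2 and 5 of 17, and thrombocyte loci 3 and 2 of 11. With library totals alone the balance turned in 3 of these lists, with 10 fibroblast loci higher and 7 lower, 5 leukocyte loci higher and 3 lower, and 4 ciliated cell loci higher and 2 lower. By the same scaling 9 keratinocyte loci were higher and 49 lower, 9 Schwann cell loci higher and 3 lower, 14 muscle loci higher and 23 lower, 1 erythrocyte locus higher and 4 lower, and 3 thrombocyte loci higher and 1 lower. The summed level of ciliated cell loci lay between 41.2 and 45.2 CPM in yellow mutant libraries and between 40.4 and 51.4 CPM in wild-type libraries, and all 6 foxj1 loci, the master regulator of motile cilia, averaged under 1 CPM in both phenotypes. At 0 in all libraries were 5 haemoglobin loci, 3 ciliated cell loci (DNAH2, DNAH6 and Spag6), 2 keratinocyte loci, and 1 locus each of the muscle, neuron and thrombocyte lists.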

How the data were processed

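Total RNA of dorsal skin was sequenced on Illumina, per the labels' protocols. Bowtie2 2.2.8 and TopHat2 2.1.1 were used per the submitters' processing notes, with no roles named, while the sources used here do not give the counting tool, its treatment of shared reads, strand use, genome build or annotation. Raw counts and FPKM per locus and library make up the deposited table, per the file headers. Further columns give mean FPKM by phenotype from the authors (with 0 written as 0.001), a log2 fold change the authors took from them, and the authors' p-value and FDR from a test the headers do not name. Only the authors' fold changes and FDR of tubulin loci were used from those.

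Members and lists were chosen with earlier results of these data known. Libraries were grouped by the labels' phenotype, and none was left out. All 41818 loci entered edgeR 4.0.16 (R 4.3.3): filterByExpr kept 30691, TMM factors scaled libraries, and glmQLFit with glmQLFTest compared the phenotypes without covariates. P-values were adjusted by the Benjamini-Hochberg method (threshold 0.05), and the pipeline was tested on simulated data. The SE is the size of the log2 change divided by the root of the F statistic. For correlations, a prior count of 2 was added before taking log2 CPM. Copies were loci that alone share a product name, with a mean of at least 10 counts, compared on counts plus 0.5. Of the 46 loci, 41 were found in the RefSeq gene table of USDA_OmykA_1.1, used for neighbour order only (at most 2 genes between), since no source names the build of the counts. Libraries of a phenotype differed beyond sampling noise (chi-square per degree of freedom 3.88 to 23.1 over loci with at least 20 counts), so none was counted as a second deposit of another; this does not show whether they are separate fish.

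Values per library are given for tubulin loci past the threshold with an absolute log2 change of 1 or more and at least 1 CPM in a phenotype, and for the 5 alpha and 5 beta loci with the highest mean FPKM. Loci such as TUBB3, the differently worded loci and the neighbours were chosen after their values were seen. From each other list up to 3 higher and 3 lower loci with the largest changes were eligible, if past the threshold, at 1 CPM or more and with no overlap. Alternatives were other scalings, no filter, DESeq2 1.42.0, limma 3.58.1 on log2 of FPKM plus 0.5, 0.1 or 1, a replicate block, leaving out each library, and other memberships.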

Additional observations from a re-analysis of the deposited data

How the results depend on the processing

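Between 15 and 20 tubulin loci were higher and between 3 and 6 lower when each library was left out in turn, beside 18 and 3 with all libraries. Of these, 6 were lower without yellow mutant library 3 and 5 without wild-type library 1. Over all tested loci, 17.9% to 19.2% were higher and 19.4% to 21.0% lower when each library was left out. Over the other settings tried, 18 to 21 tubulin loci were higher and 3 or 4 lower, and no locus changed sign with a call. The shares over all tested loci moved with the setting. By limma on FPKM, 21 tubulin loci were higher, beside 33.6% to 37.7% higher and 13.8% to 15.3% lower over all tested loci. By DESeq2, 18 were higher, beside 18.1% higher and 19.9% lower. DESeq2, RLE scaling and no filter left the calls of all 39 loci as they were, while library totals alone added 3 higher loci, TUBA1A ncbi_110501958, TUBA1A ncbi_110494203 and TUBB4B ncbi_110495958. The log2 ratio of the summed alpha level was 0.27, with 0.468 by library totals alone, 0.470 by FPKM and 0.244 to 0.313 without single libraries. For beta it was 0.35, with 0.546 by library totals alone, 0.527 by FPKM, 0.516 with the differently worded loci (a membership added after seeing the data) and 0.335 to 0.364 without single libraries. Much of the scaling gap is in the median of all tested loci, which moved by 0.20 with library totals alone. Of the other microtubule loci 66 were higher and 93 lower, and 39 of the lower ones were on the mitotic spindle list. Shares over all tested loci were 21.7% higher and 23.1% lower, and the numbers tested are given with each list above. With library totals alone the balance turned to 124 higher and 70 lower, 36 of the lower ones on the mitotic spindle list. Over all tested loci the balance turned too, to 35.2% higher and 14.8% lower. Without single libraries, 59 to 64 of the other microtubule loci were higher and 82 to 87 lower. With replicate number as a block, 19 tubulin loci were higher and 3 lower, beside 21.8% and 23.4% over all tested loci. Same-numbered libraries correlated at 0.0832, 0.0356 and 0.0658 in their deviations from the group means, each best with its own number but under 0.1, so the numbers were not taken to pair libraries. Loci with few counts and copies that may share reads limit the precision, and 3 libraries per phenotype cannot give an exact p under 0.1.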

Other observations

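At some scarce loci wild-type library 1 stood apart from the other wild-type libraries, a pattern seen after the values were known. TUBB2A ncbi_110508636 had 25, 15 and 12 counts in yellow mutant libraries, against 24, 1 and 0 in wild-type libraries, and its log2 change was 0.81 with all libraries and 4.53 without wild-type library 1 (adjusted p = 0.431 and 0.00219). TUBA1A ncbi_110494203 had 2.66, 2.74 and 2.41 CPM in yellow mutant libraries, against 2.505, 1.002 and 1.09 CPM in wild-type libraries. The intermediate filament gene prph ncbi_110494199, its neighbour beyond TUBA1C ncbi_110494205, had 4.74, 3.23 and 2.815 CPM in yellow mutant libraries, against 2.92, 0.715 and 0.848 CPM in wild-type libraries. TUBA1C ncbi_110494205 itself showed no such step, with 77.9, 62.0 and 76.2 CPM in yellow mutant libraries, against 49.0, 47.4 and 45.7 CPM in wild-type libraries. The second prph locus, ncbi_110528225 beside TUBA1C ncbi_110528227, was also highest in wild-type library 1 among the wild-type libraries, with 2.25, 0.783 and 1.38 CPM in yellow mutant libraries, against 5.31, 1.93 and 2.78 CPM in wild-type libraries, and its log2 change was -1.22 (adjusted p = 0.0232).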
